A study of Mus musculus with 3 samples.

Results

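Genes of efferocytosis, the engulfment of dying cells, and of lipid scavenging were followed through epidermal cells of the mouse ear. The 10 genes were taken by symbol from the 34289 features listed in each of the 3 libraries, and all 10 were found in every list. Mfge8 and Gas6 encode secreted bridging proteins, and Timd4, Axl, Mertk and Stab1 encode receptors that recognise dying cells directly or through such a bridge. Cd36 and Msr1 encode scavenger receptors for oxidised lipids and modified lipoproteins, Apoe encodes a secreted lipid carrier, and Gpnmb encodes a glycoprotein of lysosomes and melanosomes.

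A dying cell exposes phosphatidylserine on its surface, where phagocytes read it as an eat-me signal. Mfge8 links this lipid to integrins, Gas6 links it to the TAM receptor kinases Axl and Mertk, and Timd4 and Stab1 bind it themselves. Engulfed membranes bring a load of cholesterol and fatty acids, which scavenger receptors also take up from outside and which Apoe helps to carry away. In the epidermis, Langerhans cells (LCs) present antigen and live among keratinocytes, and monocytes and macrophages can enter it after injury.

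The 3 libraries came from ear epidermis of male Cd1 mice, an outbred stock, with 1 library a group. Mice labelled untreated had received only Nair, a hair removal cream; 1 treated group had received croton oil, a plant irritant, mixed with acetone and olive oil, and the other multiple punches with a microneedle array. Cells were prepared 48 hours after the initial treatment by trypsin detachment of the epidermis, removal of dead cells and magnetic enrichment of LCs. The labels give neither the number of animals behind a library nor a group treated with acetone and olive oil alone, so the irritant and its solvents cannot be told apart. With 1 library a group no difference between treatments could be tested. All intervals are 95% exact intervals that cover counting error only, and they leave out the spread between animals.

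Cells were assigned by gates. LCs needed at least 2% of their UMIs (unique molecular identifiers, 1 for each captured RNA molecule) from Cd74, H2-Aa, H2-Ab1 and H2-Eb1 together, the genes of major histocompatibility complex (MHC) class II, and at least 2 UMIs of the adhesion gene Epcam. Macrophages needed at least 10 UMIs summed over Pf4, Ccl7, Ccl2, Msr1 and Fcgr1, and keratinocytes at least 2% of UMIs from Krt5, Krt14, Krt15, Krt1 and Krt10. In the order untreated, croton oil and microneedle, these gates held 8637, 5829 and 5261 LCs, 1, 8 and 282 macrophages, and 98, 159 and 57 keratinocytes, out of 9054, 7626 and 6479 retained cells. Cells that passed more than 1 gate numbered 15, 98 and 42 and were left out of every class. Median depth was 11510, 12529 and 17312 UMIs in LCs, 7717 UMIs in microneedle macrophages and 29201, 50132 and 27371 UMIs in keratinocytes. Of 10 LC markers, 9 stood at 20 CPM (counts-per-million UMIs) or more in the LCs of each library, all 12 monocyte and macrophage markers did so in microneedle macrophages, and all 9 keratinocyte markers did so in the keratinocytes of each library. Of the monocyte and macrophage markers, 5, 6 and 5 also reached 20 CPM in LCs, with summed levels of 695, 2489 and 1421 CPM. The libraries shared 62 cell barcodes in all.

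Levels of each gene sorted largely by cell class. Mfge8 and Timd4 were highest in LCs, Axl and Gas6 in keratinocytes, and Cd36, Msr1, Gpnmb, Mertk and Stab1 in macrophages, while Apoe was high in both keratinocytes and macrophages. Among the classes with at least 50 cells, the highest group of each gene was croton oil LCs for Mfge8 at 2241 CPM and for Timd4 at 174 CPM. It was untreated keratinocytes for Gas6 at 163 CPM and for Apoe at 1774 CPM, and croton oil keratinocytes for Axl at 34.4 CPM. For the remaining 5 genes it was microneedle macrophages, the only macrophage group with at least 50 cells.

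**Figure D1:**
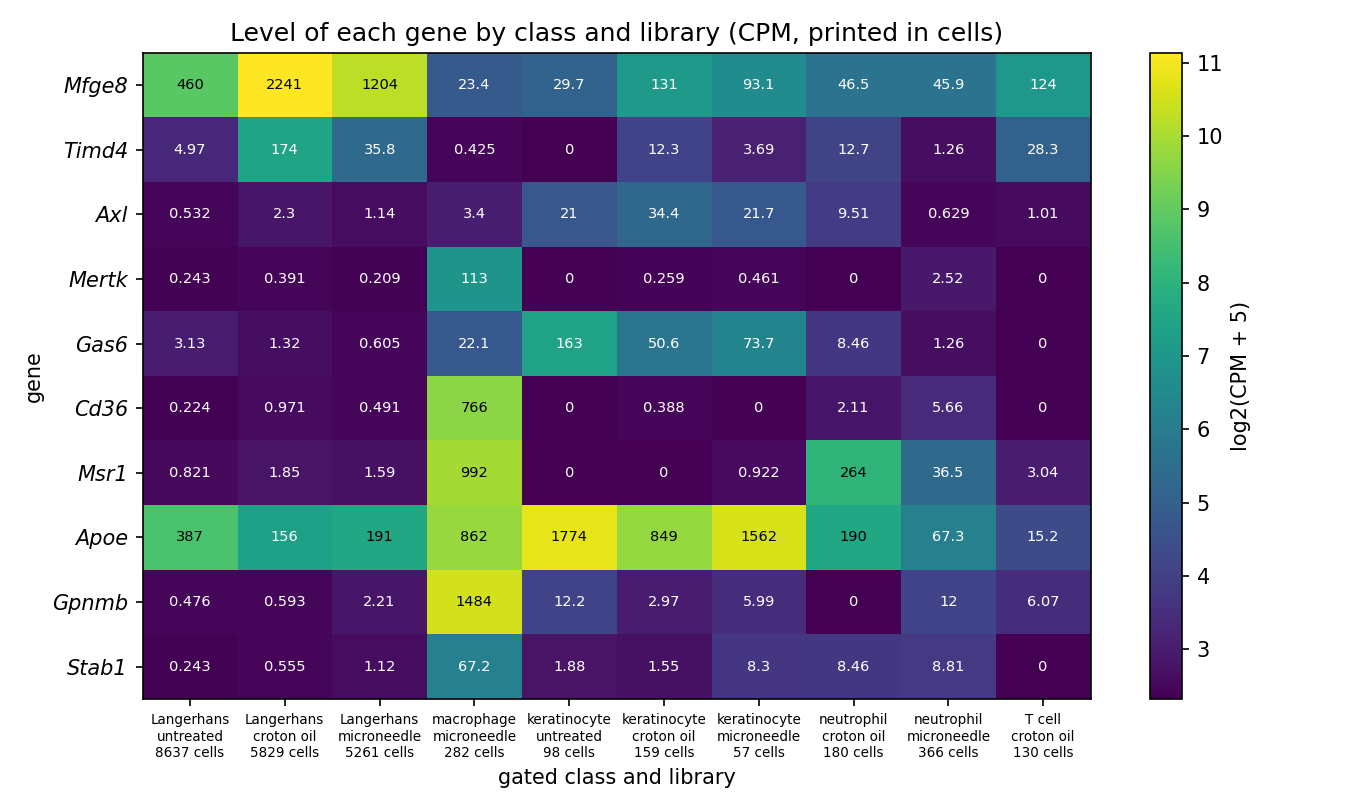
Level of each of the 10 genes (rows) in each cell class and library (columns), coloured by log2(CPM + 5). Mfge8 and Timd4 stand out in the LC columns, Gas6, Axl and Apoe in the keratinocyte columns, and Cd36, Msr1, Gpnmb, Mertk and Stab1 in the macrophage columns.

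The stretches before the transcription starts of Mfge8 and Timd4 are shown because these genes stood higher in the LCs of both treated libraries, and that of Cd36 because it was among the genes held by macrophages. The sequences are the 250 bases before the RefSeq start on build GRCm38.p6, read 5′ to 3′ on the gene's strand: Mfge8 at chr7:79149061-79149310 on the minus strand, Timd4 at chr11:46810549-46810798 on the plus strand and Cd36 at chr5:17835897-17836146 on the minus strand. Capitals mark matches on either strand to PU.1 (GAGGAA), NF-kB (GGGA and CC, 4 bases apart) or a nuclear receptor half-site (AGGTCA).
Mfge8: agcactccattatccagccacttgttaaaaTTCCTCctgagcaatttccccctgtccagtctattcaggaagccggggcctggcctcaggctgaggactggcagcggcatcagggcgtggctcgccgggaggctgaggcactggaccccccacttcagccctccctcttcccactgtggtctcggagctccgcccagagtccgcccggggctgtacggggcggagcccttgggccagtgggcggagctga
Timd4: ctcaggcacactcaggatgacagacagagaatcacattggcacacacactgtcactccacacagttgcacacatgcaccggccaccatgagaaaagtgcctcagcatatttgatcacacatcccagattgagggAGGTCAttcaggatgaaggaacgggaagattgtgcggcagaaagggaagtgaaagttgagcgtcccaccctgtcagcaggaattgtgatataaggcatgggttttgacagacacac
Cd36: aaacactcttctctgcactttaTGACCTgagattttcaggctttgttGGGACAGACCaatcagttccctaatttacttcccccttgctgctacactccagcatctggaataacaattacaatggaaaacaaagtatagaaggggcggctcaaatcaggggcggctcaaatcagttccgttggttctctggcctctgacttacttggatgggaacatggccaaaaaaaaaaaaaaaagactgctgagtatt
AP-1 (TGANTCA) was searched as well. Mfge8 held 1 PU.1 match, beginning 220 bases before the start, Timd4 held 1 nuclear receptor half-site 116 bases before it, and Cd36 held 1 NF-kB match and 1 half-site. Among 32851 RefSeq promoters of the same length, 23.3% held the PU.1 letters, 17.6% the NF-kB letters, 14.0% the half-site and 6.75% the AP-1 letters. Mfge8 and Timd4 shared none of the 4 motifs, Timd4 and Cd36 shared the half-site, and a match describes letters and not a site in use. Promoters were found for 9 of the 10 genes.

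In LCs, the bridging gene Mfge8 and the receptor gene Timd4 were higher after both treatments, and the lipid carrier gene Apoe was lower. Mfge8, which the GRCm39 annotation (GENCODE M39) places on the minus strand at chr7:78783515-78798825, stood at 460 CPM (interval 456 to 464) in the untreated library, 2241 CPM (2230 to 2251) with croton oil and 1204 CPM (1197 to 1211) with microneedles. The 3 intervals did not overlap, and both treated libraries lay above the untreated one. The level was 4.87-fold (4.82 to 4.92) that of untreated LCs after croton oil and 2.62-fold (2.59 to 2.64) after microneedling. Croton oil LCs held 1.86-fold (1.85 to 1.88) the microneedle level.

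Timd4, at chr11:46701620-46735177 on the plus strand, encodes Tim-4, a receptor that tethers phosphatidylserine. It stood at 4.97 CPM (4.56 to 5.41) in untreated LCs, from 533 UMIs, at 174 CPM (171 to 176) after croton oil and at 35.8 CPM (34.6 to 37.0) after microneedling. This made a 34.9-fold (32.0 to 38.1) higher level in croton oil LCs and a 7.20-fold (6.57 to 7.91) higher level in microneedle LCs than in untreated LCs. Between the 2 treatments the ratio was 4.84 (4.67 to 5.03) in favour of croton oil, the largest gap between treatments among the 3 genes with 20 CPM or more in LCs. Timd4 passed that floor through the treated libraries only.

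Apoe, at chr7:19430034-19434947 on the minus strand, ran the other way. It stood at 387 CPM (384 to 391) untreated, 156 CPM (153 to 159) with croton oil and 191 CPM (189 to 194) with microneedles. The untreated level was 2.48-fold (2.43 to 2.53) that of croton oil LCs and 2.02-fold (1.99 to 2.06) that of microneedle LCs, and the treated libraries differed by 1.23-fold (1.20 to 1.25).

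Changes across genes were counted on the scale log2((CPM + 5)/(CPM + 5)), which understates changes of low genes, and a gene was called at 2-fold or more. On that scale croton oil LCs differed from untreated LCs by 2.27 for Mfge8, 4.16 for Timd4 and -1.28 for Apoe. Of the 3 genes compared, 2 were called higher and 1 lower, where 5.49% of the 6832 genes compared were called higher and 5.5% lower. Of all genes called there 49.9% were higher, or 62.7% with TMM scaling, which moved the median of all genes from -0.04 to 0.08. For microneedle against untreated LCs the differences were 1.38, 2.03 and -1.0. Mfge8 and Timd4 were called higher, beside 3.84% of 6698 genes, and Apoe was just short of a call, beside 1.7% of genes called lower, and passed it with TMM scaling or a pseudocount of 1 CPM. In croton oil against microneedle LCs only Timd4 was called, at 2.13, beside 1.57% of 6628 genes called higher and 1.01% called lower (60.8% of calls higher, or 76.4% with TMM scaling), while Mfge8 differed by 0.89 and Apoe by -0.29. The comparisons share libraries, so their values are not independent of each other.

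The share of LCs with a UMI had the order of the levels once cells were thinned. With every cell thinned to 3000 UMIs, Mfge8 was found in 65.8% of 8535 untreated LCs, 90.9% of 5799 croton oil LCs and 87.0% of 5203 microneedle LCs, and without thinning, where nearly every treated LC held it, in 92.0%, 98.7% and 99%. Timd4 was found in 1.02% (0.817 to 1.26), 29.4% (28.2 to 30.6) and 6.98% (6.30 to 7.70), in the same order, and in 3.03%, 52.3% and 19.3% without thinning. Apoe was found in 58.9%, 28.2% and 37.1% of thinned LCs. T cells and neutrophils, which are not typical sources of these genes, gave a background that includes free RNA. In the croton oil library 12% of 125 T cells held Mfge8, 4% Timd4 and 2.4% Apoe, and 10.1% of 109 neutrophils held Mfge8. Median depths before thinning were 6230 UMIs in these T cells and 3363 UMIs in these neutrophils.

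**Figure D2:**
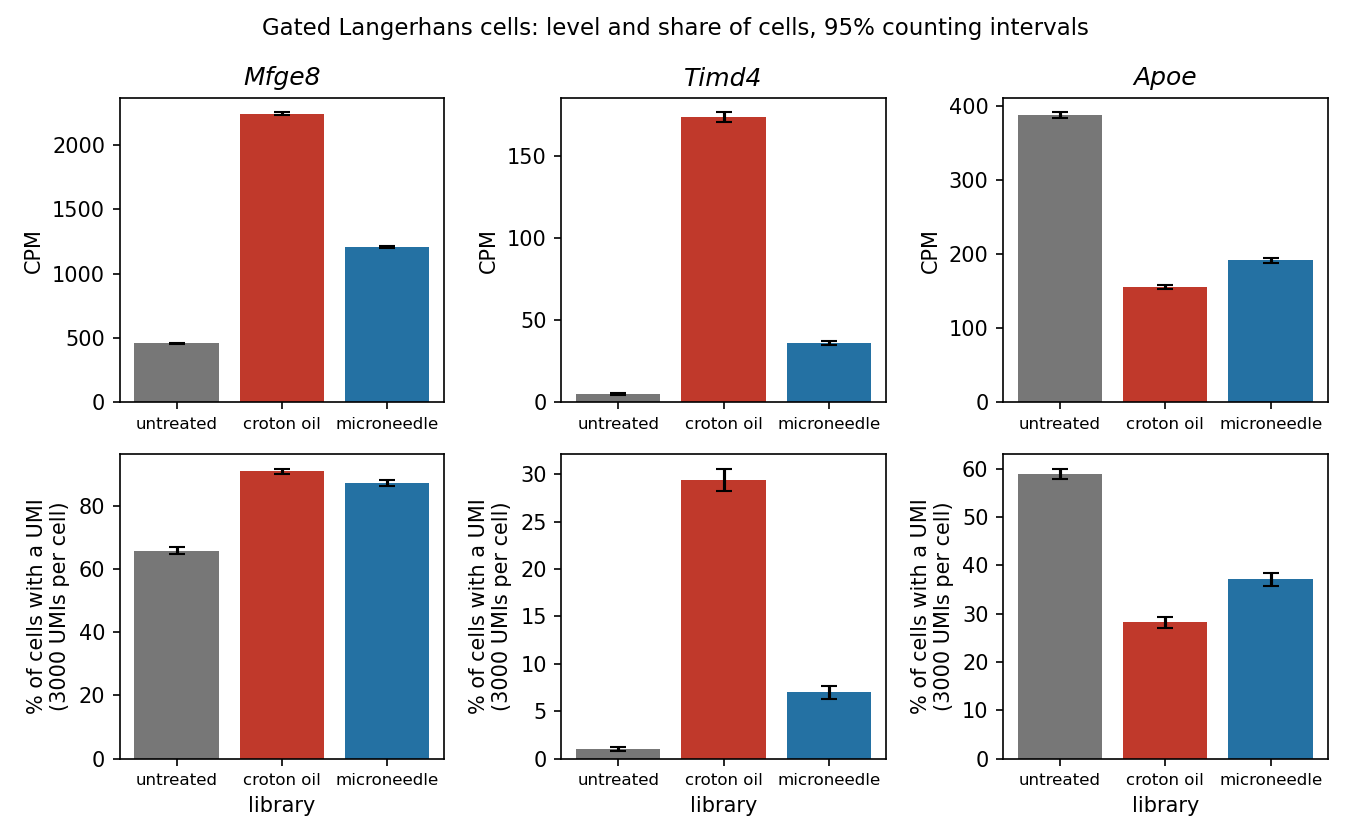
Mfge8, Timd4 and Apoe in gated LCs of the 3 libraries, as CPM (upper plots) and as percent of cells with a UMI at 3000 UMIs per cell (lower plots), with 95% counting intervals as error bars. Mfge8 and Timd4 are highest after croton oil and lowest in untreated cells, and Apoe is highest in untreated cells at 387 CPM.

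The other 7 genes were barely detected in LCs. Axl and Mertk, the TAM receptor kinases, stood at 0.532, 2.30 and 1.14 CPM and at 0.243, 0.391 and 0.209 CPM, with libraries in the order given above. Gas6, their ligand, stood at 3.13, 1.32 and 0.605 CPM. The scavenger receptor genes Cd36 and Msr1 ranged from 0.224 to 0.971 CPM and from 0.821 to 1.85 CPM, Gpnmb from 0.476 to 2.21 CPM and Stab1 from 0.243 to 1.12 CPM. At 3000 UMIs a cell, each of these 7 was found in less than 1% of the LCs of every library, the highest share being 0.949% for Gas6 in untreated LCs. None reached 20 CPM in LCs, so none entered the count of changed genes.

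Counts per cell were low. At 3000 UMIs the median LC had 1 UMI of Mfge8 in the untreated, 4 in the croton oil and 3 in the microneedle library, and the 10% of cells with the most held 35.1%, 33.4% and 31.3% of all Mfge8 UMIs. In croton oil LCs the mean was 6.38 UMIs of Mfge8 and 0.532 of Timd4, and the median cell had 0 UMIs of Timd4. At so few UMIs a cell without one may still express the gene, so no difference in evenness between the genes is read from these counts.

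Timd4 was not found more often in treated LCs with Mfge8 than in those without, and after croton oil it was found less often. Of croton oil LCs with an Mfge8 UMI, 28.7% (27.5 to 30.0) also had Timd4, against 35.5% (31.5 to 39.8) of LCs without Mfge8. In microneedle LCs these shares were 7.04% (6.32 to 7.83) and 6.53% (4.78 to 8.66), and the intervals overlapped. Timd4 was found in 23.7% (21.7 to 25.9) of croton oil LCs with Apoe and 31.6% (30.2 to 33.0) of those without. The same held in microneedle LCs, at 5.08% (4.14 to 6.15) and 8.10% (7.19 to 9.09). In untreated LCs, Gas6 was found in 1.27% (0.982 to 1.62) of cells with Apoe and 0.485% (0.283 to 0.775) of cells without, and both genes were high in keratinocytes.

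LCs of the croton oil library held a large group rich in the complement genes C1qa, C1qb and C1qc, whose product C1q also marks dying cells. With at least 10 C1q UMIs there were 4448 croton oil LCs, 1816 microneedle LCs and 12 untreated LCs. Mfge8 stood at 1791 CPM (1780 to 1802) in the C1q-rich croton oil LCs and 3720 CPM (3692 to 3748) in the other 1381, so it was 2.08-fold higher in the latter. In the microneedle library the order was reversed, at 1332 CPM (1321 to 1344) in C1q-rich LCs and 1121 CPM (1112 to 1129) in the other 3445. Timd4 was higher in C1q-rich LCs of both treated libraries: 187 CPM against 131 CPM after croton oil and 52.5 CPM against 25.1 CPM after microneedling. Among LCs with under 10 C1q UMIs, the croton oil library thus held more Mfge8 than the microneedle library, by 1.73 on the log2 scale, beyond the 0.89 of all gated LCs.

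**Figure D3:**
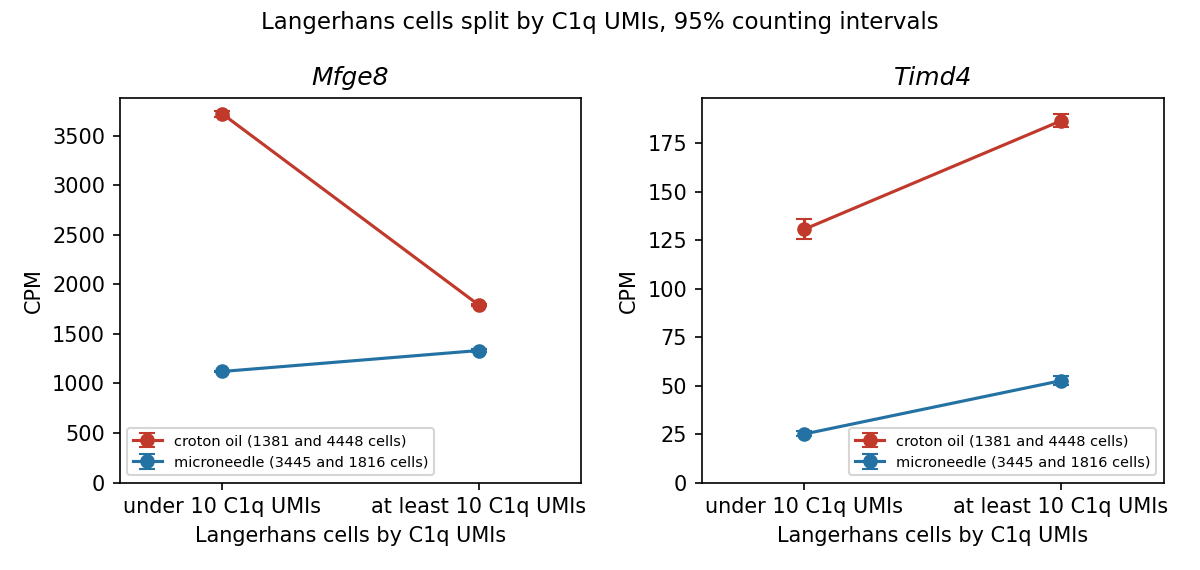
Level in CPM of Mfge8 (left) and Timd4 (right) in LCs with under 10 and with at least 10 C1q UMIs, for the croton oil and the microneedle library, with 95% counting intervals. Mfge8 is lower in C1q-rich cells after croton oil (1791 against 3720 CPM) and slightly higher after microneedling, and Timd4 is higher in C1q-rich cells of both.

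LCs expressing Ccr7 and Fscn1, genes of migrating dendritic cells, held more of both genes and less Apoe in the croton oil library. In the 117 croton oil LCs with at least 5 UMIs of the pair, Mfge8 stood at 3590 CPM (3503 to 3680) against 2210 CPM in the rest. Timd4 stood at 419 CPM (389 to 450) against 168 CPM and Apoe at 31.0 CPM against 159 CPM. These cells also held the most Axl of the LC subsets examined, at 20.9 CPM (14.7 to 28.8) from 37 UMIs, against 1.87 CPM in the rest. The microneedle library had 23 such LCs, with Mfge8 at 2187 CPM against 1198 CPM, Timd4 at 153 CPM against 35.1 CPM and Apoe at 46.8 CPM against 192 CPM. The untreated library had only 10, and the directions were the same. There Mfge8 stood at 2357 against 457 CPM, Timd4 at 50.4 against 4.90 CPM and Apoe at 56.7 against 388 CPM. With cells thinned to 3000 UMIs and split by 1 UMI of the pair, Apoe was found in 14.4% (9.68 to 20.2) against 28.7% of croton oil LCs, and in 26.8% (14.2 to 42.9) against 37.2% (35.9 to 38.5) of microneedle LCs, where the intervals overlapped. Timd4 was found in 45.7% (38.5 to 53.2) against 28.8% of croton oil LCs and, with overlap, in 17.1% (7.15 to 32.1) against 6.90% (6.22 to 7.62) of microneedle LCs. Mfge8 was found in 92.6% (87.8 to 95.9) against 90.8% (90.0 to 91.6) of croton oil LCs, with overlap. In microneedle LCs its shares, 87.8% (73.8 to 95.9) and 87.0% (86.1 to 87.9), overlapped as well. Its levels in this split were 2934 against 2100 CPM after croton oil and 1650 against 1182 CPM after microneedling.

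Many cells with Ccr7 and Fscn1 lay below the class II limit of the LC gate. A set with class II under 1% of UMIs and at least 2 Epcam UMIs held 21 untreated, 405 croton oil and 137 microneedle cells outside every gate. In its treated cells Ccr7 stood at 1155 CPM after croton oil and 991 CPM after microneedling. Mfge8 was lower there than in gated LCs, at 414 and 498 CPM, while Timd4 was 160 CPM after croton oil and 159 CPM after microneedling, the latter above the 35.8 CPM of gated LCs. Gpnmb, barely detected in gated LCs, stood at 51.2 and 73.5 CPM in these cells. This set was chosen after its values had been seen.

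Cycling LCs, with at least 3 UMIs of Mki67 and Top2a, differed from the rest by less than 2-fold in both genes in the treated libraries. Mfge8 was at 1990 against 2262 CPM in croton oil LCs and at 1173 against 1212 CPM in microneedle LCs. Timd4 was at 167 against 174 CPM after croton oil and at 44.6 (41.7 to 47.6) against 33.5 CPM (32.2 to 34.8) after microneedling. In untreated LCs it was at 9.0 against 4.4 CPM. In croton oil LCs with a Cd207 UMI, the gene of the LC marker langerin, Mfge8 stood at 2424 CPM against 1488 CPM in the 1357 cells without one, and Timd4 at 172 against 180 CPM. In microneedle LCs the Mfge8 levels were 1210 and 1033 CPM, and in untreated LCs, of which 235 lacked Cd207, 460 and 492 CPM. With cells thinned to 3000 UMIs before the split, Mfge8 was higher in LCs with Cd207 in all 3 libraries, at 477 against 427 CPM untreated, 2558 against 1760 CPM after croton oil and 1194 against 1170 CPM after microneedling.

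Macrophages of the microneedle library held the scavenger side of the set. There Gpnmb, at chr6:49013426-49047863 on the plus strand, stood at 1484 CPM (1435 to 1534) against 2.21 CPM in LCs of the same library, a 671-fold (584 to 774) difference. Cd36, at chr5:17986432-18094067 on the minus strand, stood at 766 CPM (731 to 802) against 0.491 CPM, a 1562-fold (1169 to 2133) difference. Both folds depend on the LC gate. Without its class II floor the levels were 1509 against 4.53 CPM for Gpnmb and 779 against 0.765 CPM for Cd36. The markers of other cells summed in these macrophages to 1817 CPM for LCs, 873 CPM for neutrophils and 131 CPM for keratinocytes, beside 9264 CPM for macrophages, and their part in the levels was not tested. Both genes were at most 12.2 CPM in every keratinocyte, neutrophil and T cell group of at least 50 cells.

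Mertk, the TAM kinase best known from phagocytes, lies at chr2:128540729-128645080 on the plus strand, where the annotation also has Gm56345 on the same strand. It stood at 113 CPM (99.5 to 127) in microneedle macrophages against 0.209 CPM in LCs, from 265 and 20 UMIs. Stab1, the scavenger receptor stabilin-1, at chr14:30860970-30890598 on the minus strand, stood at 67.2 CPM (57.1 to 78.5) against 1.12 CPM. Apoe stood at 862 CPM (824 to 900), 4.50-fold (4.30 to 4.71) the level of microneedle LCs. The ligand Gas6, at chr8:13515371-13544824 on the minus strand, stood at 22.1 CPM (16.5 to 29.0) against 0.605 CPM. Axl, at chr7:25456535-25488329 on the minus strand, stood at 3.40 CPM in macrophages, from 8 UMIs, so the 2 TAM receptor genes lay in different classes.

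The genes high in LCs were low in microneedle macrophages. Mfge8 stood at 23.4 CPM (17.6 to 30.4), 51.5-fold (39.5 to 68.3) below microneedle LCs and below the 45.9 CPM of neutrophils in the same library. On the log2 scale the difference was -5.41, and it was -2.63 with cells of more than 1 gate kept. Timd4 gave 1 UMI in the 282 macrophages, a level 84.2-fold (15.1 to 3328) below LCs. Of the 9 genes compared between macrophages and LCs of this library, 7 were called higher, beside 18.4% of 7340 genes, and 2 were called lower, beside 18.4%. Mertk, Gas6, Cd36, Msr1, Gpnmb and Stab1 reached 20 CPM only in macrophages and Timd4 only in LCs, so their calls follow from that floor, and the counts are a description. Apoe and Mfge8 reached it in both classes. Also among the 7 was Msr1, at chr8:40034726-40095714 on the minus strand, which is part of the macrophage gate. Its 992 CPM (952 to 1033) against 1.59 CPM in LCs is therefore a description of the gate. With Msr1 out of the gate, 264 macrophages remained and held Msr1 at 986 CPM, Gpnmb at 1487 CPM, Cd36 at 785 CPM and Mertk at 112 CPM.

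**Figure D4:**
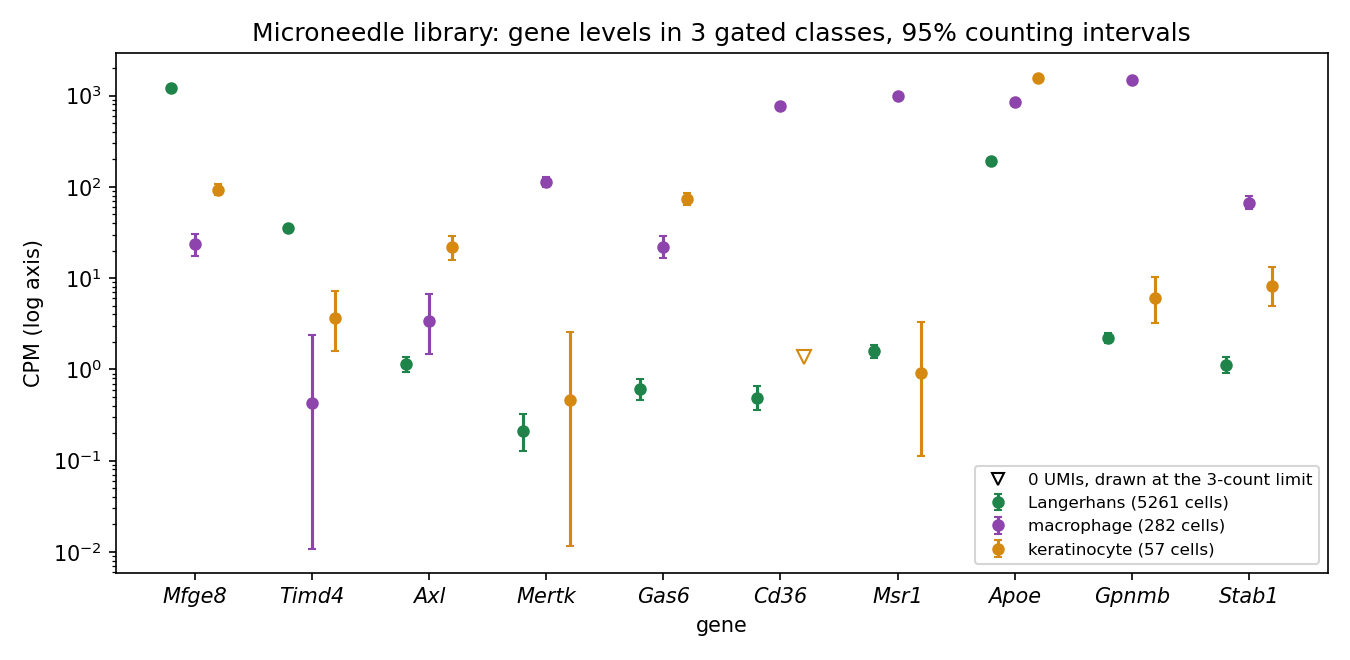
Level of each gene in CPM (log axis) in macrophages, LCs and keratinocytes of the microneedle library, with 95% counting intervals. Gpnmb, Msr1, Cd36, Mertk and Stab1 are far above LCs in macrophages, Mfge8 and Timd4 are highest in LCs, and Gas6 and Axl are highest in keratinocytes.

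Macrophages with a UMI of each gene were counted at equal depth. At 3000 UMIs, 90.7% of 247 macrophages held Msr1, 66.4% Gpnmb, 65.2% Apoe, 48.6% Cd36, 25.5% Mertk and 18.2% Stab1. Mertk and Stab1 averaged 0.340 and 0.219 UMIs a cell, too few to tell which macrophages lacked them. Neutrophils of the same library, with a median of 3321 UMIs against 7717 in macrophages, held Gpnmb in 1.66% of 241 cells, Cd36 in 1.66% and Apoe in 11.2%. Msr1, Gpnmb and Cd36 averaged 3.30, 4.57 and 2.44 UMIs a cell, and the top 10% of macrophages held 26.0%, 43.0% and 52.3% of their UMIs. Mertk was found in 30.5% (23.5 to 38.1) of macrophages with Gpnmb and 15.7% (8.61 to 25.3) of those without, and Stab1 in 23.0% (16.7 to 30.3) of those with Apoe and 9.30% (4.10 to 17.5) of those without. In both pairs the intervals overlapped.

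The croton oil library had 8 gated macrophages and the untreated library 1. Those 8 held Apoe at 862 CPM, Gpnmb at 805 CPM, Msr1 at 379 CPM, Cd36 at 227 CPM and Mertk at 85.3 CPM, from 91, 85, 40, 24 and 9 UMIs. Mfge8 stood at 199 CPM and Timd4 at 66.3 CPM in the same 8 cells, from 21 and 7 UMIs. LC markers summed to 7928 CPM there, and their part in the levels was not tested. With the class II floor of the LC gate at 1%, 6 of these cells were left, with Gpnmb at 55.5 CPM and Cd36 at 18.5 CPM, so those levels rested on the other 2. They were too few to set against the microneedle macrophages.

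Msr1 was also found in neutrophils, at 264 CPM (233 to 299) in the croton oil library and 36.5 CPM (27.7 to 47.2) in the microneedle library, a 7.24-fold (5.42 to 9.81) difference. Msr1 is part of the macrophage gate, and cells that passed both gates, 1 after croton oil and 11 after microneedling, were left out. With cells of more than 1 gate kept, the log2 difference was 1.57 in place of 2.70. At 3000 UMIs it was found in 43.1% (33.7 to 53.0) of 109 croton oil neutrophils and 7.05% (4.16 to 11) of 241 microneedle neutrophils. Croton oil neutrophils held 0 UMIs of Gpnmb and Mertk, 2 of Cd36 and 8 of Stab1. Of 12 monocyte and macrophage markers 7 reached 20 CPM in the neutrophils of each library, with sums of 2961 CPM after croton oil and 4434 CPM after microneedling, and their part in the Msr1 levels was not tested. Pf4, Mrc1, Ccr2 and Cd163 were at 0 in croton oil neutrophils. Of the 3 genes compared between these neutrophils 2 were called higher, Msr1 and Apoe, beside 27.0% of 6317 genes (65.9% of calls higher, or 49.0% with TMM scaling). Keratinocyte markers summed to 6110 CPM in neutrophils after croton oil and 492 CPM after microneedling, and their part in Apoe was not tested. For Apoe the levels, 190 against 67.3 CPM, and the shares of cells, 3.67% against 11.2%, ran in opposite directions, and no order is read from them. The Apoe difference turned from 1.43 to -1.17 with the mean of single-cell CPM and to -1.63 without the class II floor.

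Keratinocytes held the ligand Gas6, its receptor gene Axl, and Apoe. Gas6 stood at 163 CPM (149 to 177) in the untreated library, 50.6 CPM (45.7 to 55.8) with croton oil and 73.7 CPM (62.8 to 86.1) with microneedles. It was thus 3.22-fold (2.82 to 3.68) and 2.21-fold (1.84 to 2.65) lower in the treated libraries, with no overlap of intervals. LCs of the same libraries held 3.13, 1.32 and 0.605 CPM of it. At 3000 UMIs it was found in 26.7% (17.9 to 37.0), 9.15% (4.97 to 15.2) and 24.4% (12.9 to 39.5) of keratinocytes, so the microneedle share overlapped both others.

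Axl stood at 21.0 CPM (16.2 to 26.6) untreated, 34.4 CPM (30.4 to 38.8) with croton oil and 21.7 CPM (15.9 to 28.8) with microneedles. The croton oil level was 1.64-fold (1.25 to 2.18) the untreated one, short of a call at 0.60, but past it without the class II floor (1.69) and in cells led by Krt5, Krt14 and Krt15 (1.18), and the microneedle level overlapped the untreated one. In each library Axl, Gas6 and Apoe were called higher in keratinocytes than in LCs, beside 21.0%, 21.8% and 21.8% of genes in the untreated, croton oil and microneedle libraries (50.7% of microneedle calls higher, or 37.7% with TMM scaling). Axl and Gas6 reached 20 CPM only in keratinocytes, so their calls describe the filter as well. Axl was short of a call without the class II floor in the untreated library (0.93), and with a pseudocount of 20 CPM in the untreated (1.0) and microneedle (0.98) libraries. Mfge8 was called lower in all 3 and Timd4 in the 2 treated ones, beside 27.3%, 21.7% and 21.2% of genes. Timd4 reached 20 CPM only in LCs, so its call could only be lower, and in the microneedle library it was short of a call, at -0.78, with the keratin gate at 4%.

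Apoe stood at 1774 CPM (1728 to 1821), 849 CPM (828 to 869) and 1562 CPM (1510 to 1615) in untreated, croton oil and microneedle keratinocytes. It was found in 84.4%, 85.9% and 86.7% of them at 3000 UMIs. Most cells held it in each library, so the share could show little of a difference in level. At that depth the mean was 6.31 Apoe UMIs a cell untreated and 3.06 after croton oil, with medians of 5 and 2. Between croton oil and untreated keratinocytes 2 of the 4 genes compared, Gas6 and Apoe, were called lower, beside 12.6% of 7377 genes, and Mfge8 was called higher, beside 15.6%. Between microneedle and untreated keratinocytes Gas6 was called lower, beside 8.73% of 7346 genes, and Mfge8 higher, beside 11.7% (57.2% of calls higher, or 36.1% with TMM scaling). Under 23 alternative settings Gas6 after croton oil was called in all 23, and the other calls were lost in some. Apoe after croton oil was not called in 3, at -0.63 with class II at 1%, -0.87 without the class II floor and 0.60 with the keratin gate at 4%. Mfge8 after croton oil was not called in 2, at 0.23 with that keratin gate and 0.95 in cells led by Krt5, Krt14 and Krt15. After microneedling Mfge8 was not called in 3, at 0.14 in those cells, 0.83 without the class II floor and 0.92 with the keratin gate at 1%. Gas6 after microneedling was not called in 5, at values between -0.63 and -0.96. Apoe after microneedling, short of a call at -0.18, passed it in cells led by Krt5, Krt14 and Krt15 (-1.16).

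The keratinocytes of the libraries were different mixtures. Krt10, a keratin of the upper layers, stood at 23949, 469 and 5936 CPM, and Krt14, a keratin of the basal layer, at 4727, 20101 and 18544 CPM. Among the 36, 142 and 44 cells in which Krt5, Krt14 and Krt15 led, Gas6 stood at 116, 48.9 and 69.3 CPM, Axl at 12.9, 35.6 and 25 CPM and Apoe at 3693, 849 and 1645 CPM. Within these cells Gas6 and Apoe were again lower in both treated libraries than in the untreated one. Mfge8 in keratinocytes stood at 29.7, 131 and 93.1 CPM and moved with its level in LCs, and it was also at 124 CPM in croton oil T cells. LC markers summed to 4158, 3766 and 4335 CPM in these keratinocytes, and the part of LC RNA in their Mfge8 was not tested. A wider LC gate left out more keratinocytes as cells of more than 1 gate. With class II at 1%, keratinocyte Mfge8 stood at 8.53, 88.1 and 45.7 CPM. Without the class II floor it stood at 0, 21.4 and 3.91 CPM, in 21, 24 and 22 cells.

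**Figure D5:**
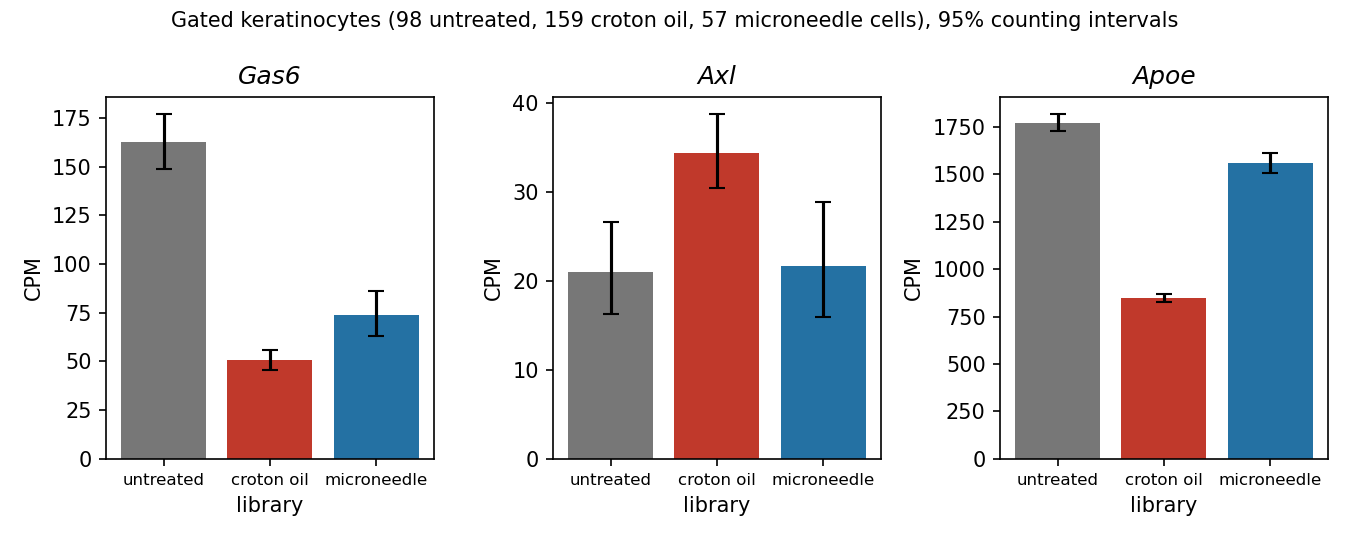
Gas6, Axl and Apoe in gated keratinocytes of the 3 libraries in CPM, with 95% counting intervals as error bars. Gas6 is highest in untreated keratinocytes at 163 CPM, Axl in croton oil keratinocytes at 34.4 CPM, and Apoe is lowest after croton oil at 849 CPM.

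Other genes of the pathway gave the setting in LCs. Of 25 listed phosphatidylserine receptors and bridging genes 10 were compared between croton oil and untreated LCs, and 6 were called higher and 0 lower, beside 5.49% and 5.5% of all genes, with a median of 1.32 beside -0.04 over all genes. C1qb, C1qc and Lrp1 reached 20 CPM only in treated LCs, so a call of theirs could only be higher, and the count and median are a description. The genes called included C1qa at 59.3, 1494 and 486 CPM and C1qc at 0.606, 182 and 37.7 CPM (here and below untreated first, then croton oil, then microneedle), and the engulfment receptor gene Lrp1 at 18.0, 66.4 and 65.8 CPM. In microneedle LCs 4 of 9 were called higher and 0 lower, beside 3.84% and 1.7% of all genes, with a median of 0.67 beside 0.02. This list overlaps the subset described above, because C1q defined it.

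Lists of later steps and of other signals gave between 0 and 2 calls each. Of all genes, 5.49% were called higher and 5.5% lower after croton oil and 3.84% and 1.7% after microneedling, and with 4 to 16 genes a list such counts show nothing about the list. Of 13 engulfment genes compared after croton oil 1 was called higher, Vav3 (383, 1055 and 1215 CPM), and 1 lower, Elmo1 (1228, 600 and 872 CPM), with a median of -0.00. After microneedling 2 were called higher, Vav3 and Trio, and 0 lower. Among phagosome genes only Cyba, a subunit of the phagocyte oxidase, was called higher, at 55.2, 186 and 125 CPM, out of 16 compared after croton oil and 14 after microneedling. In the group of TAM shedding and feedback genes Socs3, an inhibitor of cytokine signalling, was called higher after croton oil only (23.8, 111 and 36.4 CPM), 1 of 4 compared. The difference between the treatments was not tested. Among 4 find-me and do-not-eat-me genes compared, P2ry12, a nucleotide receptor, was called higher after croton oil (10.3, 27.0 and 25.3 CPM; 1.07, and 0.99 after microneedling). It reached 20 CPM only in treated LCs and could only be called higher.

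Scavenger and lipid genes were called in both directions in croton oil LCs. Of 7 other scavenger and lipoprotein receptor genes compared after croton oil 3 were called higher and 0 lower, beside 5.49% and 5.5% of all genes: the mannose receptor gene Mrc1 (0.336, 51.2 and 0.835 CPM), Lrp1, and Cxcl16 (301, 764 and 466 CPM). Mrc1 and Lrp1 reached 20 CPM only in treated LCs. Of 16 cholesterol and lipid handling genes compared after croton oil 3 were called higher and 2 lower, beside the same shares. They included the fatty acid binding protein gene Fabp5 (13.1, 154 and 15.7 CPM), the lipid transfer gene Pltp (4.99, 34.2 and 9.50 CPM) and, lower, the cholesterol exporter gene Abca1 (107, 19.0 and 51.4 CPM). Fabp5 and Pltp, too, reached 20 CPM only in croton oil LCs. Abca1 did not reach it in croton oil LCs and so could only be called lower there. These calls are a description. After microneedling 0 of 14 were called in either direction, beside 3.84% and 1.7% of all genes. In microneedle macrophages against LCs, 12 of 20 lipid handling genes were called higher and 1 lower, beside 18.4% of all genes in each direction. Some of the 20 reached 20 CPM only in macrophages and could only be called higher, so this count is a description.

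Likeness of pattern was measured as the root mean square difference of log2(CPM + 5) over the 10 library and class groups with at least 50 cells. The gene nearest to Timd4 was Zmynd15, at 0.57, followed by Fndc4 at 0.71 and Gpr55 at 0.82. Nearest to Gpnmb was Sdc3 at 0.83, then Ccl7 and Pf4, both of which are in the macrophage gate. Mfge8 and Apoe had no close neighbour, the nearest being H2-DMb1 at 0.95 and Anxa1 at 1.42. For the genes low in most groups the measure is small by construction: 0.24 for Ms4a4c beside Cd36, 0.09 for Etv1 beside Mertk, 0.33 for Plcd1 beside Axl, 0.40 for Prxl2b beside Gas6, 0.40 for Ccl9 beside Msr1 and 0.46 for Fam20c beside Stab1.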

How the data were processed

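The deposited matrices held counts of UMIs per gene and cell, which the authors produced in Cell Ranger (version 8.0.0 in the file headers) on build GRCm39, per the submitters' processing notes; libraries held 9876 barcodes with 127666928 UMIs (untreated), 8241 with 119360952 (croton oil) and 6945 with 117178809 (microneedle). Cells with at least 500 genes and at most 10% mitochondrial UMIs were kept. Scrublet (scanpy 1.11.5) marked 2, 0 and 0 doublets by its own threshold, so the highest scores were removed at 0.8% per 1000 cells: 773, 532 and 376 cells. UMIs were summed by gate to CPM, and genes with at least 20 CPM in 1 of 2 groups were compared with a pseudocount of 5 CPM. The neutrophil gate was S100a8 and S100a9 at 2% of UMIs, and the T cell gate 5 UMIs of Cd3d, Cd3e and Cd3g. Nothing was tested, since each group had 1 library. Intervals were exact Poisson or Clopper-Pearson. TMM factors came from edgeR 4.0.16. The keratinocyte, neutrophil and T cell gates were set here. Named genes were the 10 genes, the 3 largest changes of each pathway list per treatment and the 3 most alike genes. Genes, lists and gates were chosen with earlier results of these data known. Of 34289 features, 33767 matched GENCODE M39, which gave coordinates; promoters came from RefSeq on GRCm38.p6. The counting strand is not given in the sources used here; 8 of the 10 genes (not Axl or Timd4) overlap another annotated gene, whose reads cannot then be told apart. The microneedle result of the list of other scavenger and lipoprotein receptors is not reported here.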

Additional observations from a re-analysis of the deposited data

Results flagged for a closer look

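In croton oil LCs with at least 10 C1q UMIs, Mfge8 differed from the other LCs by -1.05 on the log2 scale, and in microneedle LCs by 0.25. The directions are opposite in the 2 libraries, but the result was flagged by a rule that asked for opposite directions. With 1 library a treatment the difference was not tested.

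Cells outside every gate also held these genes. With class II at 1 to under 2% and at least 2 Epcam UMIs, croton oil cells held Mfge8 at 1152 CPM and Timd4 at 233 CPM. With class II at 2% or more but 0 or 1 Epcam UMIs, Mfge8 stood at 2063 CPM after croton oil and 1573 CPM after microneedling, Timd4 at 333 CPM in croton oil cells and Gpnmb at 241 CPM, from 43 UMIs, in microneedle cells. With class II under 1% and at least 2 Epcam UMIs, Mfge8 stood at 414 CPM after croton oil and 498 CPM after microneedling, and Timd4 at 160 and 159 CPM. These values were picked for lying above those of the same set in the untreated library, so that order is the rule of choice and not a result.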

How the results depend on the processing

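The 10 comparisons were repeated under 23 alternatives, 6 of them chosen after seeing the data. Apoe, just short of 2-fold lower in microneedle LCs, was called, giving 1 gene lower in place of 0, with TMM scaling, with mitochondrial, ribosomal and class II genes out of the total, with a pseudocount of 1 CPM, without doublet removal, with class II at 4%, at 1% or without a floor, with cells of more than 1 gate kept, and with the keratin gate at 4%. Requiring 50 CPM left 1 gene higher in microneedle LCs and 1 lower in macrophages, because Timd4 was no longer compared. Croton oil against microneedle LCs gave 2 genes higher, Mfge8 joining Timd4, with TMM scaling and in LCs with under 10 C1q UMIs. Keratinocyte Apoe, croton oil against untreated, turned to 0.60 with the keratin gate at 4%, and neutrophil Apoe to -1.17 with the mean of single-cell CPM and -1.63 without a class II floor; neutrophil Mfge8 (0.02) was called, at 1.35, without doublet removal; the cause was not tested. In LCs, Mfge8 ranged from 2.16 to 3.0 and Timd4 from 2.95 to 4.87 (log2) after croton oil, and from 1.28 to 1.44 and 1.16 to 2.62 after microneedling. Msr1 in neutrophils ranged from 1.57 to 3.34. Over all genes, a pseudocount of 20 CPM gave 182 lower after croton oil (376 as reported) and 154 higher and 45 lower after microneedling (257 and 114), and a 50 CPM floor gave 229 and 66 lower. Croton oil against microneedle gave 43 to 127 lower LC genes (67 as reported) under TMM, pseudocount 1, 50 CPM and the C1q limit, and 56 higher and 30 lower with pseudocount 20. The 50 CPM floor left 890 lower in macrophages (1348). Keratinocyte counts ran from 668 to 1664 higher and 635 to 1573 lower after croton oil (1149 and 932 as reported), and from 385 to 1433 higher and 436 to 1291 lower after microneedling (856 and 641). Keratinocytes against LCs gave 1315 higher with TMM scaling in the microneedle library (1726), 1034 and 1038 higher at 50 CPM in the microneedle and croton oil libraries (1684 in the latter) and 1304 lower with Krt5, Krt14 and Krt15 leading in the untreated one (2131). Neutrophils gave 652 to 2566 higher (1706) and 576 to 1338 lower (882). No paired analysis was possible because each group had 1 library. Depth limits the 1 and 8 macrophages of the untreated and croton oil libraries, the keratinocytes (57 to 159 cells) and genes under 20 CPM.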

Other observations

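Cells that passed both the LC and the macrophage gate were few, at 5 untreated, 7 croton oil and 12 microneedle cells. The 5 untreated cells held Mfge8 at 3768 CPM, Axl at 176 CPM from 28 UMIs and Cd36 at 245 CPM from 39 UMIs, while Msr1 was at 6.27 CPM. In the 7 croton oil cells Mfge8 stood at 1677 CPM and Msr1 at 257 CPM, and in the 12 microneedle cells at 1223 and 86.5 CPM. Doublets cannot be told apart from single cells here.

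Gpnmb, which melanocytes also express, stood at 1928 CPM in 7 croton oil cells and 1700 CPM in 2 microneedle cells with at least 5 UMIs of melanocyte genes. The untreated library had 0 such cells.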
